A study of Mus musculus with 6 samples.

Results

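The 10 genes described here are the core genes of the mammalian circadian clock: Arntl (also called Bmal1), Clock, Per1, Per2, Per3, Cry1, Cry2, Nr1d1, Nr1d2 and Dbp. They were picked by symbol from the 24061 genes in a table of RNA-Seq read counts, all 10 were found there, and all 10 passed the filter on low counts, as did 16371 genes in all. The counts came from dorsal skin of female C57BL/6 mice, 8 to 14 weeks old, that received daily intradermal injections in the shaved back for 14 days. Saline-treated mice were given 50 μl of saline, and rIL-31-treated mice were given 20 μg of recombinant IL-31 in 50 μl of saline. There were 3 libraries from each group. No transgene or deletion is named, and both groups share the strain, the shaving and the repeated injection. Skin was taken at Day 14, and the hour of the day, the light schedule and the order in which the mice were killed are given in neither the labels nor the methods. The clock genes are therefore also a check on whether both groups were sampled at like times.

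The clock is a feedback loop that runs in nearly every cell. BMAL1 and CLOCK bind as a pair to E-box sequences and switch on the Per and Cry genes, the REV-ERB genes Nr1d1 and Nr1d2, and Dbp. PER and CRY proteins then block BMAL1 and CLOCK, and REV-ERB proteins hold down Arntl, so that Arntl transcripts peak at about the opposite time of day to those of Dbp, Nr1d1 and the Per genes. In mouse skin, keratinocytes, fibroblasts and hair follicles all carry this clock. Because Dbp, Nr1d1 and Per3 swing widely over a day, a difference in sampling time between animals usually shows in these genes and, in the other direction, in Arntl.

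The promoter sequences of these genes hold some of the elements of the loop. RefSeq windows on GRCm38.p6, from 250 bases before to 50 after each annotated start, were matched for 9 of the 10 genes, all but Per2, and were searched on both strands for exact copies of CACGTG (the E-box), TTATGTAA or TTACGTAA (the D-box, bound by DBP), TGACGTCA (the cAMP response element) and TAGGTCA or TGGGTCA (the core bound by ROR and REV-ERB proteins). The E-box was found for 2 genes, Per1 (chr11:69098699-69098998, plus strand, motif at position -166 from the start) and Cry1 (chr10:85185005-85185304, minus strand, at -60). The D-box was found for Per3 only, where it occurs at -205 and again at -158 (chr4:151044616-151044915, minus strand). The ROR and REV-ERB core was found for Arntl only, at position 31 after the start (chr7:113207261-113207560, plus strand). No window of the 9 genes held the cAMP response element, which says only that these letters are not in these windows. These 4 windows are printed because they are the ones with a match, 5′ to 3′ on the strand of the gene, with the match in capitals.
Per1: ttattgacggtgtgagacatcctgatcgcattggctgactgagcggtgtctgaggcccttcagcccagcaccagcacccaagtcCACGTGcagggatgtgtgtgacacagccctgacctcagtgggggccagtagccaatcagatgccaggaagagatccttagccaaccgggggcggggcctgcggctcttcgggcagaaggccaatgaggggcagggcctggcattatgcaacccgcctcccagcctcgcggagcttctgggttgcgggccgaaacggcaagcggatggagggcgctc
Cry1: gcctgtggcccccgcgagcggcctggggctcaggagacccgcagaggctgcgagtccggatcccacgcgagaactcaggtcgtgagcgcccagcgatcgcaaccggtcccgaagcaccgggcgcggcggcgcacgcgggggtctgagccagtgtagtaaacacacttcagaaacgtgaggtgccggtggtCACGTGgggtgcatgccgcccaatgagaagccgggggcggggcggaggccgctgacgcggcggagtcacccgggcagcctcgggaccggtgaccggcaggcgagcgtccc
Per3: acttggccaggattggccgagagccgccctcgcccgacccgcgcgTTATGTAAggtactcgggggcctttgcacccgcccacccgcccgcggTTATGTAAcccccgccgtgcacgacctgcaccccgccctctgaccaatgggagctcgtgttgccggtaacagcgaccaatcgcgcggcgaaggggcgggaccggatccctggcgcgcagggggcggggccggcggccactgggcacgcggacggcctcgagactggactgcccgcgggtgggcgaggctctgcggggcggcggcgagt
Arntl: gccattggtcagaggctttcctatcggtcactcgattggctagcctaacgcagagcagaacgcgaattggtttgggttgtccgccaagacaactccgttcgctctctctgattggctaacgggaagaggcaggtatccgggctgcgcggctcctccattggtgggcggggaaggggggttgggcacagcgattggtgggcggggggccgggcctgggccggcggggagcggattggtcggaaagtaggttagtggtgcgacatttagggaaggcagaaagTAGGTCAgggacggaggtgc
Of all 32851 RefSeq windows, 7.15% held the E-box, 1.06% the D-box, 1.79% the cAMP response element and 6.45% the ROR and REV-ERB core. Counted by gene, as the matches above are, the shares of 27025 genes were 8.09%, 1.23%, 2.03% and 7.35%. Per1 and Arntl each have a further window, from another annotated start, without a match. A match is a description of the letters and was not tested for binding.

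Levels are given as CPM, the counts of a gene scaled to the size of its library, with TMM factors that ranged from 0.988 to 1.02. Library totals were 21710679 to 23963685 counts in saline-treated skin and 23122953 to 25552684 in rIL-31-treated skin. The 10 genes had between 288 and 3995 counts in a library. Groups were compared with edgeR's quasi-likelihood test over all genes, and a gene was called at a Benjamini-Hochberg FDR below 0.1. Of the 16371 genes tested, 1349 (8.24%) were called, 739 (4.51%) higher and 610 (3.73%) lower in rIL-31-treated skin. Among the clock genes 1 was called higher, Per1, and 0 lower. With 10 genes, 1 call lies near the share over all genes and says nothing of the genes as a set. The median log2 fold change was 0.23 over the 10 genes and 0.0077 over all genes, and 6 of the 10 were positive. None of the 10 changed by more than 2-fold, whereas 302 genes (1.84%) were called and passed 2-fold. The 2 groups did not overlap for 1 of the 10 clock genes, again Per1, against 4206 genes (25.7%) over the table. Whole skin is a mixture of cells, and fewer cells of a type cannot be told apart from less RNA per cell.

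**Figure D1:**
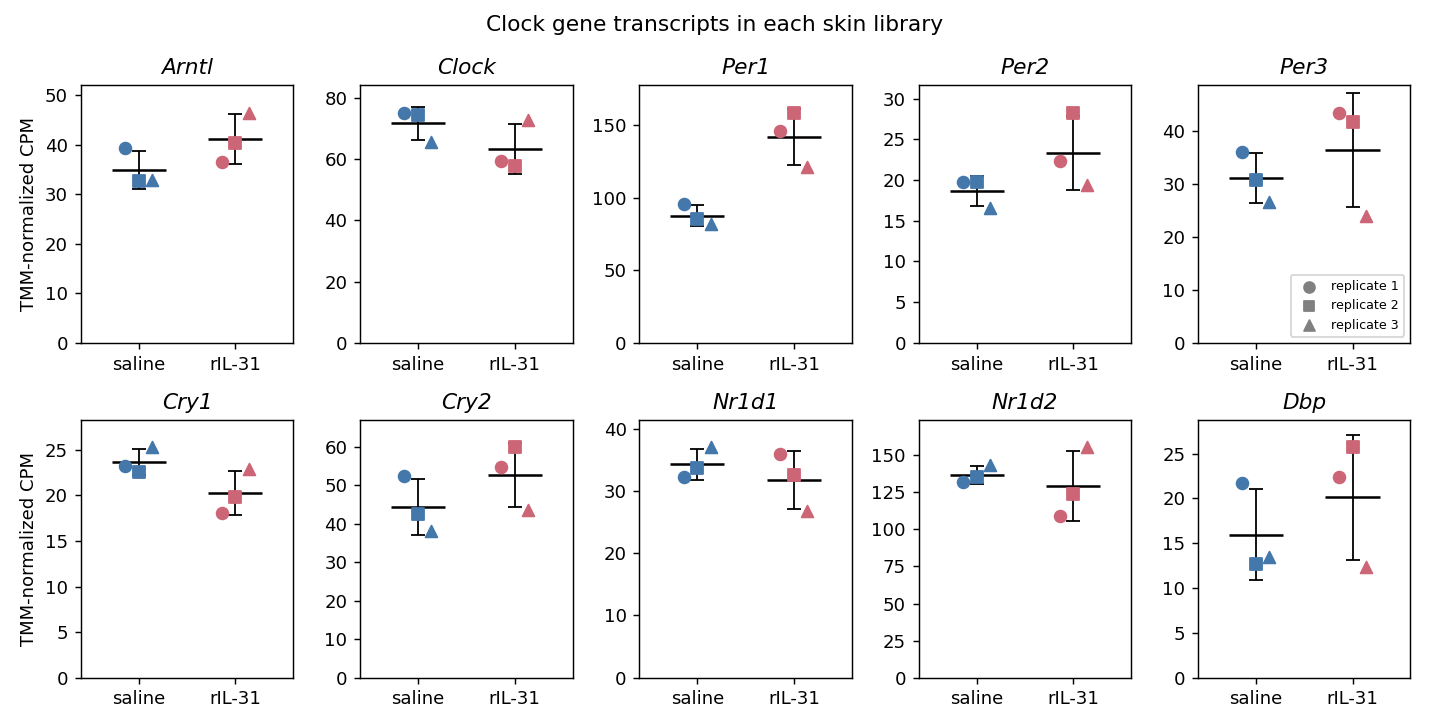
TMM-normalized CPM of each clock gene (linear axes from 0) in the 3 saline and 3 rIL-31 libraries. Points are libraries, marked by replicate number, and bars are the mean ± SD. Per1 is the only gene whose rIL-31 libraries (121 to 159 CPM) all lie above its saline libraries (81.9 to 96.1 CPM).

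Neither activator gene was called. Arntl encodes BMAL1, without which daily rhythms are lost in mice, and had 39.4, 32.7 and 32.8 CPM in saline replicates 1, 2 and 3 and 36.5, 40.4 and 46.5 CPM in rIL-31 replicates 1, 2 and 3. The highest value was that of rIL-31 replicate 3, and rIL-31 replicate 1 lay inside the saline range. The log2 fold change of Arntl was 0.23 (SE 0.14, FDR 0.384), with a 95% interval of -0.07 to 0.54. Clock, which encodes the other partner, had 75.2, 74.3 and 65.5 CPM in saline-treated skin and 59.4, 57.6 and 72.7 CPM in rIL-31-treated skin. Here rIL-31 replicates 1 and 2 lay below all saline libraries and rIL-31 replicate 3 lay among them. The log2 fold change of Clock was -0.18 (SE 0.12, FDR 0.473; 95% interval -0.45 to 0.09), and it turned to 0.15 after the correction for GC content described further on.

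Per1, a repressor of the loop, was higher in rIL-31-treated skin. It had 96.1, 85.2 and 81.9 CPM in saline-treated skin and 146, 159 and 121 CPM in rIL-31-treated skin. Every rIL-31 library lay above every saline library, although rIL-31 replicate 3 was the lowest of its group. The mean was 87.7 ± 7.44 CPM in saline-treated and 142 ± 19.2 CPM in rIL-31-treated skin (SD, n = 3 each), and the log2 fold change was 0.70 (SE 0.13, edgeR FDR 0.0107), or 1.62-fold with a 95% interval of 1.34 to 1.96. Per1 was also called in all 17 other fits, with log2 fold changes from 0.60 to 0.80 and FDRs from 3.3e-05 to 0.0884. The Per1 gene lies at chr11:69095108-69109965 of GRCm38.p6, and its window with the E-box is the one printed above.

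The other Per genes were not called, and Per3 had a wide spread in rIL-31-treated skin. Per2 encodes a PER protein whose mutation disturbs the daily rhythms of mice, and had 19.8, 19.8 and 16.6 CPM in saline-treated and 22.4, 28.3 and 19.4 CPM in rIL-31-treated skin. Only rIL-31 replicate 3 lay inside the saline range, and the log2 fold change was 0.32 (SE 0.17, FDR 0.323; 95% interval -0.05 to 0.69). Per3, whose loss leaves mouse rhythms nearly normal, had 36.0, 30.7 and 26.7 CPM in saline-treated and 43.5, 41.7 and 24.0 CPM in rIL-31-treated skin. Replicates 1 and 2 of the rIL-31 group were the highest of the 6 libraries for Per3 and replicate 3 was the lowest. The log2 fold change of Per3 was 0.22 (SE 0.21, FDR 0.626; 95% interval -0.25 to 0.69).

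The Cry genes, which encode the strongest repressors of BMAL1 and CLOCK, had fold changes of opposite sign, and neither was called. Cry1 had 23.2, 22.5 and 25.3 CPM in saline-treated and 18.0, 19.9 and 22.9 CPM in rIL-31-treated skin, a log2 fold change of -0.22 (SE 0.14, FDR 0.419; 95% interval -0.53 to 0.08). The groups for Cry1 met only at rIL-31 replicate 3, which just passed saline replicate 2. Cry2 had 52.4, 42.5 and 38.1 CPM in saline-treated and 54.7, 59.8 and 43.4 CPM in rIL-31-treated skin, a log2 fold change of 0.25 (SE 0.16, FDR 0.433; 95% interval -0.10 to 0.59). Saline replicate 1 was the highest saline library for Cry2 and rIL-31 replicate 3 the lowest of its group.

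The REV-ERB genes, which encode the repressors of Arntl, were not called. Nr1d1 had 32.2, 33.7 and 37.0 CPM in saline-treated and 36.0, 32.5 and 26.8 CPM in rIL-31-treated skin, a log2 fold change of -0.11 (SE 0.14, FDR 0.728; 95% interval -0.42 to 0.20), and -0.23 with the GC and length offset. Nr1d2 had 132, 135 and 143 CPM in saline-treated and 109, 124 and 155 CPM in rIL-31-treated skin, a log2 fold change of -0.08 (SE 0.13, FDR 0.801; 95% interval -0.37 to 0.21). The 2 genes parted within the rIL-31 group, since replicate 3 was its lowest library for Nr1d1 and its highest for Nr1d2.

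Dbp encodes a transcription factor of the PAR bZIP family and is among the most strongly rhythmic transcripts of many mouse tissues. It had 21.8, 12.7 and 13.4 CPM in saline-treated and 22.4, 25.7 and 12.3 CPM in rIL-31-treated skin. The libraries formed a high set, made up of saline replicate 1 and rIL-31 replicates 1 and 2, and a low set of the other 3, and these sets cut across the groups. The log2 fold change of Dbp was 0.34 (SE 0.28, FDR 0.567), with a 95% interval of -0.28 to 0.95, the widest of the 10. It ranged from 0.11 without rIL-31 replicate 2 to 0.62 without saline replicate 1, and was 0.20 with the GC and length offset. The highest library of a group exceeded the lowest by 1.72 times in saline-treated and by 2.09 times in rIL-31-treated skin. Among the 12903 tested genes whose mean reached 100 counts, 3.21% in saline-treated and 4.32% in rIL-31-treated skin varied by as much or more, while the medians over those genes were 1.18 and 1.31. Per3 came next in rIL-31-treated skin, with ratios of 1.35 in saline-treated and 1.82 in rIL-31-treated skin, which 18.1% and 8.95% of these genes reached. The Dbp gene overlaps Sphk2 by 741 bases, Nr1d1 overlaps Thra by 1075 bases, Per3 overlaps Uts2, and Cry2 overlaps D930015M05Rik. No source used here tells whether strand entered the counting, and the values of these 4 genes are uncertain to that extent. Arntl, Clock and Per2 overlap noncoding genes or pseudogenes outside the count table, whose reads could have entered their counts.

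Levels were also divided by the length of a chosen transcript of each gene, which allows only a rough comparison between genes. The transcript forms present were not known, and GC content and overlapping genes were not corrected for. In saline-treated skin Nr1d2 was highest, at 29.3 ± 1.29 CPM per kilobase (SD, n = 3 here and for the other values per kilobase), then Per1 at 18.8 ± 1.59, and each of these lay apart from the gene below it. Nr1d1 (12.6 ± 0.911 CPM per kilobase), Arntl (12.0 ± 1.31) and Cry2 (11.2 ± 1.83) overlapped, as did Dbp (8.68 ± 2.75), Cry1 (7.82 ± 0.470) and Clock (7.35 ± 0.550), and Dbp also overlapped Cry2. Per3 (5.19 ± 0.780 CPM per kilobase) and Per2 (3.21 ± 0.318) were the lowest and lay apart from each other and from Clock. In rIL-31-treated skin Per1 stood at 30.4 ± 4.11 CPM per kilobase and overlapped Nr1d2, at 27.7 ± 5.09. Below these 2 genes, each gene in the rIL-31 group overlapped the next, from Arntl (14.2 ± 1.74 CPM per kilobase) down to Per2 (3.32 to 4.85).

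The libraries of a group differed from each other for some clock genes. Relative to each gene's mean over the 6 libraries, rIL-31 replicate 3 was low for Dbp (-0.48 on the log2 scale), Per3 (-0.46) and Nr1d1 (-0.29) and high for Arntl (0.30) and Nr1d2 (0.23). Replicates 1 and 2 of the rIL-31 group were high for Dbp (0.38 and 0.58), Per1 (0.40 and 0.51) and Per3 (0.40 and 0.34). Saline replicate 1 also stood high for Dbp (0.34), against -0.44 and -0.36 in saline replicates 2 and 3.

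**Figure D2:**
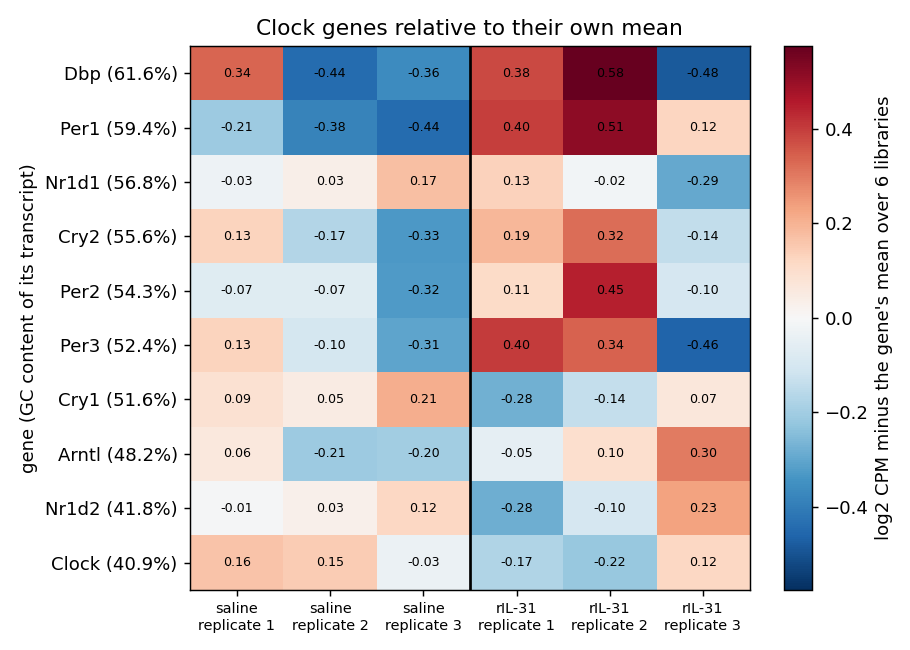
Log2 CPM of each clock gene (rows, ordered by the GC content of its transcript) minus that gene's mean over the 6 libraries (columns). In the rIL-31 group, replicate 3 reads -0.48 for Dbp and 0.23 for Nr1d2, where replicate 1 reads 0.38 and -0.28.

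The GC content of transcripts ran alongside. Over the tested genes, the log2 level of a gene in a library relative to all libraries had a Spearman correlation with the GC content of its transcript of -0.12, -0.21 and -0.24 in saline replicates 1, 2 and 3, of 0.39 and 0.27 in rIL-31 replicates 1 and 2, and of -0.25 in rIL-31 replicate 3 (across genes, which are not independent replicates). The transcripts of Dbp (61.6% GC), Per1 (59.4%), Nr1d1 (56.8%) and Cry2 (55.6%) are GC-rich beside a median of 50.2% over the tested genes, and those of Clock (40.9%) and Nr1d2 (41.8%) are GC-poor. After an offset for GC content and transcript length in each library, Dbp read 22.6, 13.1 and 14.0 CPM in saline-treated and 18.8, 24.3 and 13.9 CPM in rIL-31-treated skin, so the same 3 libraries stayed high. Per1 read 94.2, 87.4 and 86.3 CPM in saline-treated and 133, 145 and 136 CPM in rIL-31-treated skin, with the low value of rIL-31 replicate 3 gone. Its log2 fold change was then 0.63 and it was again the 1 clock gene called higher, with 0 called lower, where 5.6% of all genes were higher and 3.02% lower. After the offset the groups did not overlap for Per1, Per2 (higher) and Cry1 (lower), 3 of the 10, against 25.6% of all genes, and Per2 and Cry1 were not called. The GC correlation was negative in all saline libraries and positive in rIL-31 replicates 1 and 2, so the offset may also take up part of a difference between the groups. Whether GC content or something else sets the libraries apart was not tested.

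The calls among the other clock genes turned on rIL-31 replicate 3. Without it, 5 of the 10 were called higher, against 12.3% of all genes, and 1 lower, against 11.8%. The log2 fold changes were then 0.80 for Per1, 0.44 for Per2, 0.45 for Per3, 0.37 for Cry2, 0.59 for Dbp and -0.29 for Clock. With the GC and length offset as well, a fit chosen after seeing the data, 2 clock genes were called higher, Per1 and Per3 (10.1% of all genes), and 1 lower, Cry1 (6.65%). Leaving out any other library left Per1 as the only clock gene called.

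Ratios between genes of opposite phase within a library do not depend on depth or scaling, and are given as a description without a test. The log2 ratio of Arntl to Dbp counts was 0.86, 1.37 and 1.29 in saline-treated and 0.70, 0.65 and 1.92 in rIL-31-treated skin. The highest and the lowest value both belonged to the rIL-31 group, whose mean differed from that of the saline group by -0.08. The ratio of Arntl to Nr1d1 was 0.29, -0.04 and -0.17 in saline-treated and 0.02, 0.31 and 0.79 in rIL-31-treated skin, and the group means differed by 0.35, or by 0.47 after the GC and length offset. The ratio of Arntl to Per3 was 0.13, 0.09 and 0.30 in saline-treated and -0.25, -0.04 and 0.96 in rIL-31-treated skin, with a difference of 0.05. In all 3 ratios with Arntl the groups overlapped and rIL-31 replicate 3 was the highest of the 6 libraries. The ratio of Clock to Per2 was 1.93, 1.91 and 1.98 in saline-treated and 1.41, 1.03 and 1.91 in rIL-31-treated skin. It was nearly constant in the saline libraries and lower in rIL-31 replicates 1 and 2, and the difference between the group means went from -0.49 to -0.15 after the GC and length offset.

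**Figure D3:**
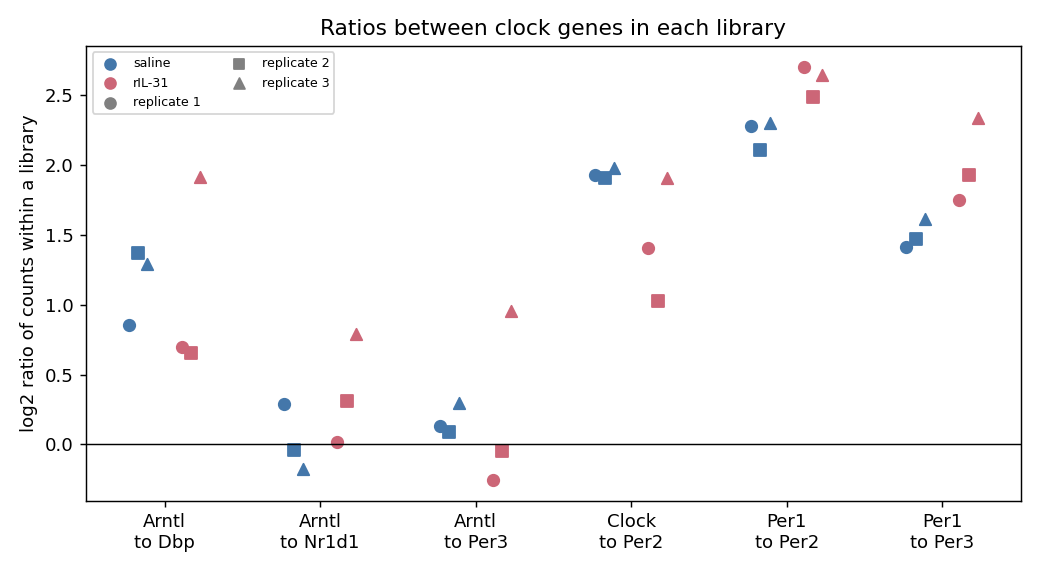
Log2 ratio of the counts of a pair of clock genes within each library, for 4 pairs of opposite phase and for Per1 against Per2 and Per3. Colors mark the groups and symbols the replicate number; in the pairs with Arntl, rIL-31 replicate 3 (1.92, 0.79 and 0.96) lies above the other libraries.

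Ratios of Per1 to the other Per genes were higher in rIL-31-treated skin. The log2 ratio of Per1 to Per2 was 2.28, 2.11 and 2.31 in saline-treated and 2.71, 2.49 and 2.65 in rIL-31-treated skin, and that of Per1 to Per3 was 1.42, 1.47 and 1.62 in saline-treated and 1.75, 1.93 and 2.34 in rIL-31-treated skin. The groups overlapped in neither ratio, but both pairs were chosen after their values were seen and were not tested. After the GC and length offset the difference between the group means was 0.33 for Per1 to Per2, against 0.38 before it, and 0.42 for Per1 to Per3, against 0.50 before it. With the offset, the ratio of Per1 to Per3 did overlap between the groups, at 1.43, 1.52 and 1.68 in saline-treated and 1.56, 1.87 and 2.44 in rIL-31-treated skin.

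Beyond the core, 27 further genes of the clock pathway were examined, and all 27 were tested. Of these, 4 were called higher (4.51% of all genes were), 1 lower (3.73%) and 22 not called, with a median log2 fold change of 0.10. For 5 of the 27 all rIL-31 libraries lay above all saline libraries, and for 3 all lay below, near the 25.7% of all genes whose groups did not overlap. The genes called belong to different arms of the clock. Bhlhe40 and Bhlhe41 encode the DEC repressors, which compete for E-boxes, and they moved in opposite directions. Bhlhe40 had 82.0, 78.3 and 83.0 CPM in saline-treated and 106, 104 and 109 CPM in rIL-31-treated skin, a log2 fold change of 0.39 (SE 0.10, edgeR FDR 0.0454). Bhlhe41 had 35.0, 36.5 and 36.0 CPM in saline-treated and 27.6, 19.1 and 22.5 CPM in rIL-31-treated skin, a log2 fold change of -0.63 (SE 0.15, edgeR FDR 0.0356). For both genes the saline libraries lay close together and the groups did not overlap, while the rIL-31 libraries of Bhlhe41 were spread more widely than those of Bhlhe40.

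The other calls were of output genes and a regulator of protein stability. Noct, which encodes nocturnin, an enzyme made rhythmically in many mouse tissues, had 114, 93.5 and 94.0 CPM in saline-treated and 151, 160.3 and 120.3 CPM in rIL-31-treated skin, a log2 fold change of 0.52 (SE 0.13, edgeR FDR 0.0536). Wee1, a cell cycle kinase gene with E-boxes described in mouse liver, had 65.6, 59.8 and 64.8 CPM in saline-treated and 94.0, 99.0 and 74.1 CPM in rIL-31-treated skin, a log2 fold change of 0.49 (SE 0.13, edgeR FDR 0.0534). In both, rIL-31 replicate 3 was the lowest of its group but above every saline library. Usp2, which encodes a deubiquitinase that acts on clock proteins, had 77.7, 81.9 and 81.1 CPM in saline-treated and 99.5, 97.4 and 113 CPM in rIL-31-treated skin, a log2 fold change of 0.37 (SE 0.10, edgeR FDR 0.0774). Unlike Per1, these 5 genes were not called in every fit. When the 6 libraries were left out in turn, Bhlhe41 was called in 3 of the 6 fits, Bhlhe40 and Noct in 2 each, and Wee1 and Usp2 in 1 each; the 4 rises were all lost when saline replicate 2 or 3, or replicate 2 of the rIL-31 group, was left out, and Bhlhe41 was lost when any saline replicate was. Their log2 fold changes stayed at -0.78 to -0.53 for Bhlhe41, 0.36 to 0.41 for Bhlhe40, 0.42 to 0.63 for Noct, 0.39 to 0.61 for Wee1 and 0.29 to 0.40 for Usp2 in these fits, and the genes called over the whole table fell to 246 to 464 higher and 171 to 389 lower in all of them but the fit without rIL-31 replicate 3. The GC and length offset left 3 of the rises called, and Bhlhe41 (-0.49) and Usp2 (0.29) were not.

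**Figure D4:**
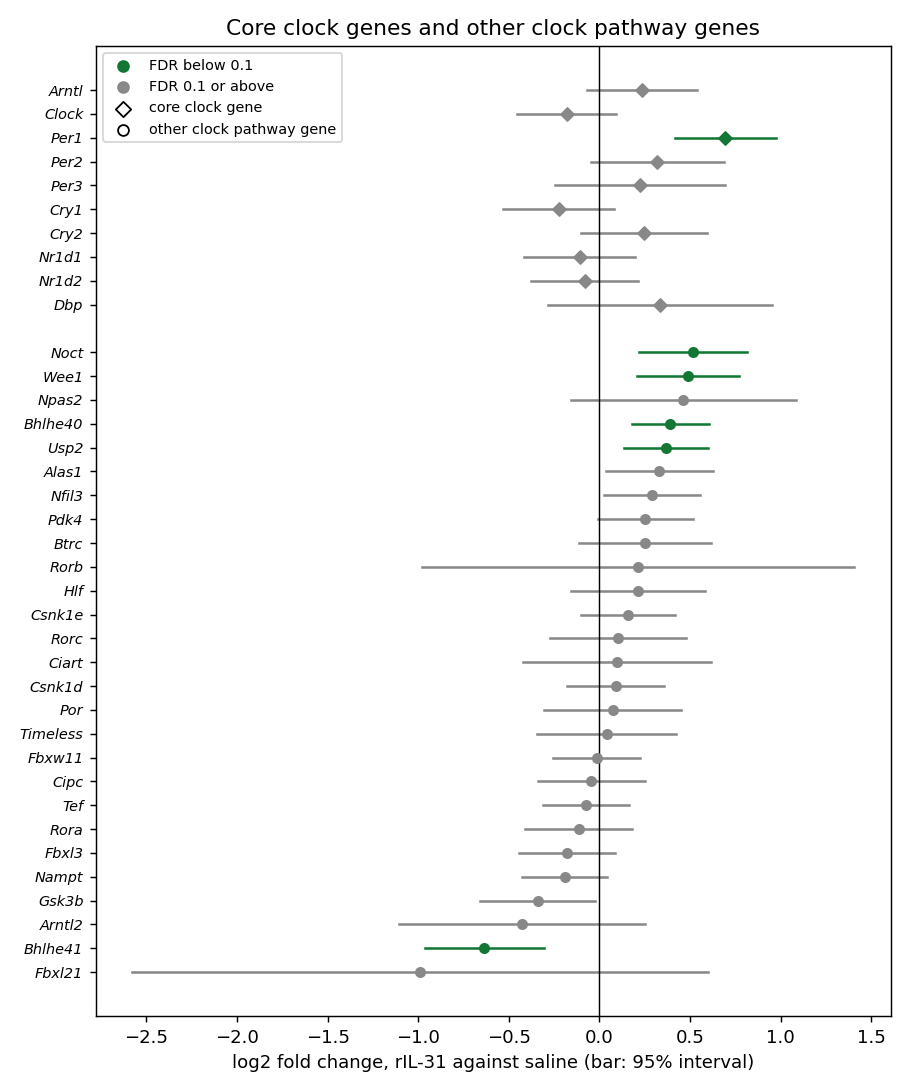
Log2 fold change, rIL-31 against saline, of the 10 core clock genes (diamonds) and 27 other clock pathway genes (circles, ordered by fold change), with 95% intervals as bars. Genes called at an FDR below 0.1 are green: Per1 (0.70) in the core, and Noct, Wee1, Bhlhe40, Usp2 and Bhlhe41 (-0.63) outside it.

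None of the next genes by p was called. They were Alas1 (log2 fold change 0.33, FDR 0.201), the rate-limiting enzyme gene of heme synthesis, Nfil3 (0.29, FDR 0.209), the antagonist of DBP at D-boxes, Gsk3b (-0.34, FDR 0.218), a kinase gene, Pdk4 (0.25, FDR 0.272), a regulator of pyruvate use, Nampt (-0.19, FDR 0.356), an enzyme gene of NAD synthesis, and Npas2 (0.46, FDR 0.407), the paralog of Clock. Nfil3 had 53.4, 55.6 and 60.7 CPM in saline-treated and 78.0, 62.6 and 66.7 CPM in rIL-31-treated skin, without overlap. Gsk3b had 224, 229.5 and 234 CPM in saline-treated and 143, 181 and 219 CPM in rIL-31-treated skin, again without overlap but with rIL-31 replicate 3 close to the saline libraries. With the GC and length offset the log2 fold changes shrank to -0.12 for Gsk3b, -0.04 for Nampt and 0.18 for Nfil3. They went to 0.24 for Alas1 and 0.41 for Npas2. That of Pdk4 grew to 0.32 (edgeR FDR 0.118, not called), and Pdk4 was called with offset and replicate block (edgeR FDR 0.0526). The remaining 16 genes of the list, among them the ROR genes, the other PAR bZIP genes and the casein kinase genes, had larger p values. In the 21 of the 27 genes with a RefSeq window, the E-box was found for 4 (Bhlhe41, Ciart, Cipc and Tef). The D-box was found for Timeless, the cAMP response element for Hlf and the ROR and REV-ERB core for Nfil3. Over all genes with a window the shares were 8.09%, 1.23%, 2.03% and 7.35%, in that order. Of the pathway genes with a match, Bhlhe41 was called, in the direction opposite to that of Per1.

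Per1 is known to answer within hours to glucocorticoids and to signals that raise cAMP, apart from the time of day. A list of 12 genes that respond to glucocorticoids had 2 called higher (4.51% of all genes were), 0 lower (3.73%) and 10 not called, with a median log2 fold change of 0.14. The genes called were Sgk1, a kinase gene, at 0.68 (SE 0.11, edgeR FDR 0.0058), and Errfi1, a feedback inhibitor of the EGF receptor, at 0.46 (SE 0.12, edgeR FDR 0.0603). Zbtb16 (0.61, FDR 0.105) and Klf9 (-0.42, FDR 0.131), both transcription factor genes, were not called and had opposite signs. Of the 12 log2 fold changes, 6 were positive. Tsc22d3 (-0.04, edgeR FDR 0.921) and Fkbp5 (-0.21, edgeR FDR 0.480) were among the negative ones. Mt1 (0.34, edgeR FDR 0.287), Mt2 (0.33, edgeR FDR 0.39) and Cdkn1a (0.32, edgeR FDR 0.174) were among the positive ones and were not called. A list of 12 immediate early genes, which respond to cAMP and serum, had 11 called higher, against 4.51% of all genes. Crem was not called (0.52, FDR 0.123), and the median log2 fold change of the list was 1.46. Both lists were chosen with earlier results of these data known, so their shares are a description and not a test. Fos went from 57.3, 59.6 and 68.6 CPM in saline-treated to 315, 299.8 and 415 CPM in rIL-31-treated skin, a log2 fold change of 2.47 (SE 0.15, edgeR FDR 1.2e-05). Fosb rose by 2.62 (SE 0.12), Nr4a1 by 2.53 (SE 0.16) and Atf3 by 2.22 (SE 0.11). Replicate 3 was the lowest library of the rIL-31 group for Per1, but not after the GC and length offset. Among the immediate early genes it was lowest for Fosb (898, 916 and 733 CPM in rIL-31 replicates 1, 2 and 3). It was also lowest for Nr4a1 (337, 296 and 223 CPM), Atf3 (182, 186 and 166 CPM), Jun, Ier2 and Sik1. For Fos, Egr1, Dusp1 and Crem it was the highest, and for Junb and Btg2 it lay between. Whether the rise of Per1 shares a source with either list was not tested.

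**Figure D5:**
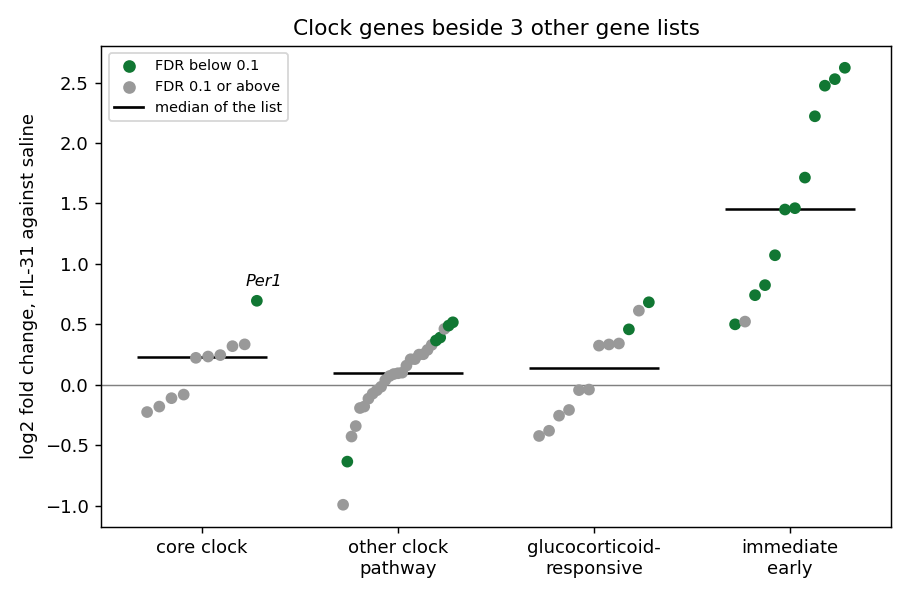
Log2 fold change, rIL-31 against saline, of each gene in 4 lists: the core clock genes, the other clock pathway genes, and the glucocorticoid-responsive and immediate early genes. Green points have an FDR below 0.1 and black lines are the medians of the lists, at 0.23, 0.10, 0.14 and 1.46.

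Cell type markers moved between the groups as well. All 44 markers in 11 lists were detected in every library. All 4 keratinocyte markers were called higher (summed level 6823 to 7508 CPM in saline-treated and 10900 to 14930 CPM in rIL-31-treated skin), and all 4 melanocyte markers lower (492 to 530 CPM against 216 to 221 CPM). Of the 4 mast cell markers 3 were called higher (201 to 208 CPM against 257 to 302 CPM), of the 5 skeletal muscle markers 1 lower (3830 to 4065 CPM against 2752 to 3390 CPM) and of the 3 Schwann cell markers 1 higher. No marker of hair follicle, fibroblast, adipocyte, macrophage, T cell or endothelium was called. In rIL-31 replicate 3, Per1, Per2, Per3, Cry2, Nr1d1 and Dbp were lowest of their group, and Arntl, Clock, Cry1 and Nr1d2 were highest. After the GC and length offset, Per1 was no longer the lowest there and Clock no longer the highest. Clock then read 76.0, 65.1 and 71.2 CPM in rIL-31 replicates 1, 2 and 3. The summed level in that library was the lowest of its group for 7 of the 11 marker lists. Among these were keratinocyte (10900 CPM), hair follicle (7984 CPM), fibroblast (7374 CPM) and muscle (2752 CPM). The sum was highest for 1, mast cell (302 CPM). These sums carry no GC correction, and the markers of a list could differ. Of the rIL-31 libraries, replicate 3 was lowest for Col1a1 (58.9% GC) and Col1a2 (55.7%). It was highest for Dcn (42.8% GC) and Lum (41.9%), and for Pdgfra it lay between. Markers of other lists did not all follow this order. Plin1 (61.3% GC) was lowest in rIL-31 replicate 1 (24.7, 41.6 and 32.8 CPM in replicates 1, 2 and 3). Mcpt4 (49.1% GC) was lowest in replicate 3 (64.1, 60.6 and 56.8 CPM). Whether GC content bears on the markers was not tested. The part of cell makeup in the levels of the clock genes was not tested, and a difference in the hour of sampling between animals cannot be told apart from treatment or from differences between animals with the labels at hand.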

How the data were processed

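RNA-Seq was done on dorsal skin after saline or rIL-31, with 3 libraries each. The counts deposited by the authors are whole numbers of reads for each gene, without normalization. Tools named in the submitters' processing notes are bcl2fastq, CASAVA 1.8, TopHat and DESeq, with the build mm10; their roles, the counter, its use of strand and its handling of reads that map to several genes were not stated. Nothing says that the 3 samples of a group came from separate mice, so a p-value covers only the spread among samples, which may be technical. No 2 libraries agreed within sampling noise (chi-square per degree of freedom 8.98 or more).

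Entrez numbers were named from RefSeq (GRCm38.p6). The 85 of 24061 without a symbol, up to 6.03% of a library, stayed in totals and tests. edgeR 4.0.16 in R 4.3.3 was used for the quasi-likelihood test with filterByExpr (minimum count 10) and TMM, with no term but treatment, and calls were made at an FDR below 0.1. The procedure was tested on simulated data. Transcript GC content and length came from GENCODE M21 and covered 99% of tested genes; the offset was a smooth per library (mgcv 1.9.3) that kept depth and TMM factors. Alternatives were DESeq2 1.42.0, limma-voom (limma 3.58.1), other normalizations and filters, the offset, a replicate block, fits without 1 library and other thresholds.

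The members and lists were chosen with earlier results of these data known. Named were all 10 members, every called clock pathway gene and the next 6 by p, and the 4 smallest p of the glucocorticoid and immediate early lists. Outside this rule lie Crem and the other immediate early genes, Tsc22d3, Fkbp5, Mt1, Mt2 and Cdkn1a. So do the fibroblast markers, Plin1, Mcpt4, and the genes named for an overlap, a motif or a missing window. They were named after their values were seen.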

Additional observations from a re-analysis of the deposited data

How the results depend on the processing

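Per1 was called higher, and no other clock gene was called, with DESeq2, limma-voom, scaling by RLE, by upper quartiles or by library size alone, an omitted filter, a filter of 10 counts in each library, the replicate block and the GC and length offset with and without that block. The clock genes called numbered 1 to 5 higher and 0 to 1 lower when each library was left out in turn; with the offset and without rIL-31 replicate 3, added after seeing the data, they were 2 and 1. No clock gene passed 2-fold, so 0 were higher. Clock reversed with the offset (log2 fold change 0.15), with offset and block (0.15) and with the offset without rIL-31 replicate 3 (0.13). Nr1d2 reversed to 0.048 with the offset and 0.045 with offset and block, and without 1 library it ranged from -0.24 to 0.028, the latter without rIL-31 replicate 1. None of these was called.

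The other clock pathway genes numbered 0 to 6 higher and 0 to 3 lower without 1 library. They were 1 higher at an FDR below 0.05, 0 higher and 0 lower past 2-fold, 2 lower with the replicate block (5 higher), 0 lower with the offset, and 0 lower with the offset without rIL-31 replicate 3. Over all genes, 246 to 2050 were higher and 171 to 1968 lower without 1 library. With the replicate block 1177 were higher and 1096 lower, with offset and block 1314 were higher and 758 lower, and with the offset without rIL-31 replicate 3 there were 1686 higher and 1109 lower. DESeq2 called 1022 higher and 925 lower, an FDR below 0.05 left 448 higher and 356 lower, and 2-fold left 188 higher and 114 lower. Fewer genes passed the stricter thresholds by construction; for the other changes the cause was not tested. The labels do not say whether libraries of the same replicate number belong together. Deviations of same-numbered libraries correlated at 0.107, -0.04 and 0.317, below 0.1 for replicate 2. The value for replicate 3 was the highest between any saline and any rIL-31 library. Saline replicate 1 correlated best with rIL-31 replicate 2 (0.254), not with its own number. With 3 libraries in a group, these correlations cannot decide whether the libraries were paired. Depth did not limit the clock genes, each with at least 288 counts in every library.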
